A study of Mus musculus with 20 samples.

Results

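The genes of major histocompatibility complex (MHC) class II presentation were followed in RNA from cultured mouse macrophages derived from bone marrow (BMDM). The members were the rows of the deposited gene table whose Ensembl identifier carries, in GENCODE M21, the symbol Cd74, H2-Aa, H2-Ab1, H2-Eb1, H2-DMa, H2-DMb1, H2-DMb2 or Ciita. All 8 were found among the 14456 genes listed. The 20 libraries form 5 groups of 4. In the glucose experiment, BMDM spent 24 h in 25 mM glucose (high glucose) or in 5.5 mM glucose with 19.5 mM mannitol, which balances the osmolarity (normal glucose). In the exosome experiment, naive BMDM received PBS, or 2000000000 particles per ml of exosomes from BMDM kept in normal glucose (BMDM-NG-exo) or in high glucose (BMDM-HG-exo), for 24 h. Per the study's methods, BMDM were grown from the marrow of wild-type C57BL/6 mice with 25 ng/ml M-CSF for 6 days, so they represent macrophages of 1 strain and 1 growth factor. The age of these mice is given as 8 weeks in one passage and as 8 to 12 weeks in another. The PBS group received no particles, and it therefore differs from both exosome groups in the presence of exosomes as well as in what they carry.

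Class II molecules are alpha-beta dimers that present peptides from endocytosed proteins to CD4+ T cells. In the endoplasmic reticulum the dimer is held by the invariant chain Cd74, which is cut by endosomal proteases until only a short peptide fills the groove, and the H2-DM dimer then exchanges that peptide for antigen. The coactivator Ciita sets the transcription of these genes together by binding the factors that sit on a conserved group of promoter elements, the X1, X2 and Y boxes among them. In macrophages, Ciita and the class II genes are best known as targets of interferon gamma. In the C57BL/6 strain the alpha chain of the second class II molecule, I-E, is not made.

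Promoters of 4 members are shown because Ciita acts through elements that class II genes share. RefSeq start-site windows of 300 bases (250 before the start and 50 after it, build GRCm38.p6) were at hand for 5 of the 8 members, H2-Aa, H2-Eb1, H2-DMa, H2-DMb1 and H2-DMb2. They were searched on both strands for CCAAT (the Y box core), CCAATCAG (a longer Y box, which contains CCAAT), TGACGTCA and TGACGCA (like an X2 box) and ACNGATG (part of the X1 box). Capitals in the sequences below mark the letters that matched, each written on the strand of the gene, so that ATTGG and CTGATTGG are CCAAT and CCAATCAG read from the other strand.
H2-Aa, chr17:34287774-34288073, minus strand: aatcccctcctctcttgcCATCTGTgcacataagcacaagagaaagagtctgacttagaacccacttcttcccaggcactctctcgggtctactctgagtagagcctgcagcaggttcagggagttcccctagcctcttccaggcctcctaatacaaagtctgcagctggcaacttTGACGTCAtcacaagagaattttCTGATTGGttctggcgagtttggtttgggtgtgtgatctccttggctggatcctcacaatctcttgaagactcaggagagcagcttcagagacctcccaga
H2-Eb1, chr17:34305617-34305916, plus strand: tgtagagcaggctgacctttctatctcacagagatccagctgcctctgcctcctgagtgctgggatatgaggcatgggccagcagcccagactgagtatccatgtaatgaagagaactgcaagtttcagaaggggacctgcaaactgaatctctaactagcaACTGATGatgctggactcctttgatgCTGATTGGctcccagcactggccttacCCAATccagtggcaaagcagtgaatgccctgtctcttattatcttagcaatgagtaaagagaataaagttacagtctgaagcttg
H2-DMb1, chr17:34152941-34153240, plus strand: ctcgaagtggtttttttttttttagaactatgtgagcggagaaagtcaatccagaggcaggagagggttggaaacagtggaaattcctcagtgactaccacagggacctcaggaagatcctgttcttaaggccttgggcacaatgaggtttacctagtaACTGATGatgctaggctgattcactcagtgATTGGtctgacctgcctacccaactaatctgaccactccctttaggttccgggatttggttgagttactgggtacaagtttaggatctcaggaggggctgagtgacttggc
H2-DMb2, chr17:34144999-34145298, plus strand: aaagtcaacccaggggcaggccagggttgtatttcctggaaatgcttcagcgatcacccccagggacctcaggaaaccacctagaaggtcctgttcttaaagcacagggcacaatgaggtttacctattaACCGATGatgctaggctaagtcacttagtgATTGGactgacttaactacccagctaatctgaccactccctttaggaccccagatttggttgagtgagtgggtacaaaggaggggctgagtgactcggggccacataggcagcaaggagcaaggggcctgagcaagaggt
H2-Eb1, H2-DMb1 and H2-DMb2 each held ACNGATG upstream of a CCAAT on the other strand. The first bases of these matches lay 29 bases apart in H2-Eb1 and 30 bases apart in H2-DMb1 and in H2-DMb2. H2-Aa held TGACGTCA at -74 and the longer Y box at -51 (counted from the start site), and its only ACNGATG match lay far upstream at -232. H2-DMa had 2 windows, which are not printed, of which 1 (chr17:34122582-34122881) held none of these motifs and 1 (chr17:34125268-34125567) held a CCAAT at -198. Both lie inside the annotated gene, which runs from 34119541 to 34139101. Whether BMDM use these start sites or others of H2-DMa was not tested. Of the 32851 windows of all genes, 37.41% held CCAAT, 4.097% CCAATCAG, 1.79% TGACGTCA, 2.116% TGACGCA and 9.851% ACNGATG, and 3.653% held CCAAT and ACNGATG together. A match describes the letters of a window and not a bound site. No window was at hand for H2-Ab1, Ciita and the gene of the invariant chain.

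The values are read counts that the authors scaled by a size factor for each library, here called normalized counts. Recovered totals were between 34016445 and 56310712 reads. The PBS libraries had between 34016445 and 44693640 reads and the BMDM-NG-exo libraries between 40751064 and 56310712. All 9 macrophage markers looked at were listed, among them Csf1r, Adgre1 and Lyz2. Of the markers of other cell types, 1 of 8 for dendritic cells (Itgax), 2 of 7 for B cells (Cd79b and Cd22) and 1 of 6 for T cells (Cd4) were listed, and genes with fewer reads than the listed ones were not analysed here. These are bulk libraries, in which fewer cells of a type and less RNA per cell cannot be told apart. The study states that the exosome samples used separate preparations of exosomes. Nothing says whether the glucose libraries of a group came from separate cultures, so p-values measure the spread between libraries, which may in part be technical. Libraries of the exosome groups are numbered 1 to 4 so that the same number carries the same date in the titles. The glucose libraries keep the numbers of their titles.

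Levels of the members spanned 2 orders of magnitude per length of exon. Over the 20 libraries the median normalized count per kilobase was 2003 for Cd74, 309 for H2-Ab1, 285 for H2-DMb1, 132 for H2-Eb1, 119 for H2-DMa, 77.0 for H2-Aa, 36.1 for Ciita and 16.1 for H2-DMb2. The invariant chain thus stood 6.49 times above H2-Ab1, the most abundant of the presenting chains on this scale, while H2-Ab1 and H2-DMb1 lay within 1.08 times of each other and their libraries overlapped. The lengths used here join all annotated exons of a gene. For H2-Ab1 this gave 2568 bases, against 1212 in its longest protein-coding transcript, and for H2-DMb1 1681 against 1404. The order and ratios of genes on this scale therefore depend on the length used. H2-DMb2, a second beta chain gene of the DM dimer, was covered by between 10 and 64 reads per library, against between 2662 and 5196 for Cd74. Its longest protein-coding transcript was 94.09% identical to that of H2-DMb1 over 1219 aligned bases, with an identical stretch of up to 221 bases, so the counts of this pair could be split wrongly. H2-DMa overlapped Brd2 and Ciita overlapped Dexi, both on the opposite strand, and the authors counted by strand.

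**Figure D1:**
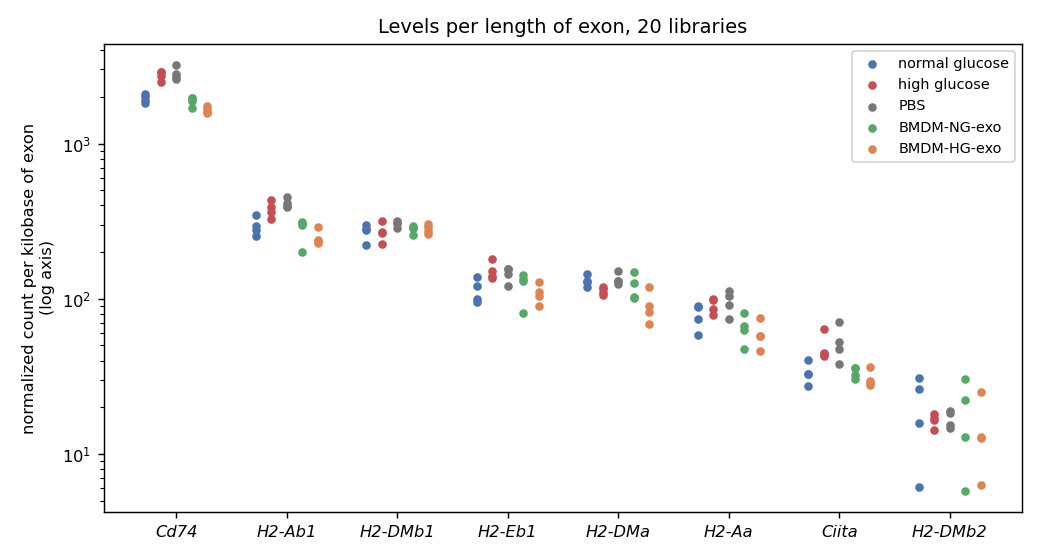
Normalized count per kilobase of exon (log axis) of the 8 members in each of the 20 libraries, coloured by group. Cd74 lies between 1572 and 3192 in every library, above all other members, and H2-DMb2 reaches down to 5.80.

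Cd74, the invariant chain (chr18:60803848-60812652 in GRCm38, plus strand), was higher in high glucose. Its normalized counts in normal glucose libraries 1, 3, 5 and 6 were 3404, 3082, 3224 and 3504. In high glucose libraries 1, 2, 4 and 6 they were 4856, 4865, 4181 and 4537. The lowest high glucose library stood above the highest normal glucose library, and the means were 4609.7 ± 324 and 3304 ± 188 (SD, n = 4 each). In the exosome experiment Cd74 was at 4701, 4499, 5359.8 and 4384 in PBS libraries 1 to 4. It was at 3312, 3321, 2829 and 3167 in BMDM-NG-exo, and at 2679, 2808, 2639.8 and 2926 in BMDM-HG-exo. Every library that had received exosomes lay below every PBS library, while both exosome groups overlapped. The means were 4736 ± 436, 3157 ± 229.9 and 2763 ± 130.2 (SD, n = 4 each).

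H2-Ab1, the beta chain of the class II molecule I-A (chr17:34257689-34269419, plus strand), showed the same order of groups. It was at 654, 708, 759 and 896 in normal glucose and at 1117, 935, 998 and 841 in high glucose. High glucose library 6 fell inside the normal glucose range. In PBS it was at 1064, 1017, 1154 and 1000.4, in BMDM-NG-exo at 799.5, 786, 510.4 and 763, and in BMDM-HG-exo at 591, 610.1, 603 and 744. Each exosome library was again below each PBS library, and BMDM-NG-exo library 3 was the lowest of all 20. Group means were 754 ± 103 in normal glucose, 973 ± 116 in high glucose, 1059 ± 68.9 in PBS, 715 ± 137 in BMDM-NG-exo and 637 ± 71.9 in BMDM-HG-exo (SD, n = 4 each).

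H2-Aa, the alpha chain of I-A (chr17:34282744-34287823, minus strand), varied more between libraries. Normal glucose libraries held 223, 335, 282 and 342 and high glucose libraries 373, 376, 327 and 299, and these ranges overlapped. PBS libraries held 282, 346, 429 and 395, BMDM-NG-exo libraries 239, 252, 181 and 308, and BMDM-HG-exo libraries 174, 218, 286 and 218. PBS library 1 lay below the highest library of each exosome group. H2-Eb1, the beta chain of I-E (chr17:34305867-34316674, plus strand), was at 187, 235, 269 and 193 in normal glucose and at 274, 348, 265 and 295 in high glucose. It was at 301, 280.3, 300.4 and 236 in PBS, at 276, 255, 156 and 259 in BMDM-NG-exo, and at 201, 251, 215 and 174 in BMDM-HG-exo. All of these H2-Eb1 ranges overlapped with their neighbours in the order of group means.

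Ciita, the coactivator of class II transcription (chr16:10480059-10528418, plus strand), was at 383, 260.3, 312 and 312 in normal glucose and at 410.3, 609, 422 and 424 in high glucose. Both ranges were apart, and high glucose library 2 stood far above the other 3. PBS libraries held 361, 503, 679 and 449.6, BMDM-NG-exo libraries 343, 309.7, 292 and 339, and BMDM-HG-exo libraries 267, 275, 347 and 280.4. Each exosome library was below each PBS library, with PBS library 3 highest and PBS library 1 close to the exosome range. The means were 317 ± 50.6 in normal glucose, 467 ± 95.2 in high glucose, 498 ± 134 in PBS, 321 ± 24.4 in BMDM-NG-exo and 292 ± 36.7 in BMDM-HG-exo (SD, n = 4 each).

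The peptide exchange dimer behaved differently between its chains. H2-DMa, the alpha chain (chr17:34119541-34139101, plus strand), was at 411, 439.5, 499 and 451 in normal glucose and at 373, 409, 364 and 398 in high glucose, every high glucose library being lower. It was at 522, 448, 447 and 428 in PBS, at 356, 433, 351 and 513 in BMDM-NG-exo and at 235, 285, 309 and 411 in BMDM-HG-exo. The BMDM-HG-exo libraries lay below every PBS library, whereas BMDM-NG-exo spread across the PBS range. H2-DMb1, its beta chain (chr17:34153072-34160230, plus strand), had group means between 452 ± 63.1 in high glucose and 512 ± 21.5 in PBS (SD, n = 4 each), and its libraries were between 376 and 532. H2-DMb2 (chr17:34143307-34151555, plus strand) was between 10.1 and 53.6 over all libraries, and each of its groups overlapped with the others.

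In the order of group means, PBS stood first for 6 members, high glucose first for H2-Eb1 and normal glucose first for H2-DMb2. BMDM-HG-exo stood last for 7 members and second for H2-DMb1. Neighbouring groups in this order overlapped except between high glucose and normal glucose for Cd74 and between high glucose and BMDM-NG-exo for Ciita. The experiments differ in handling as well as in treatment, so levels set across them cannot be assigned to either.

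**Figure D2:**
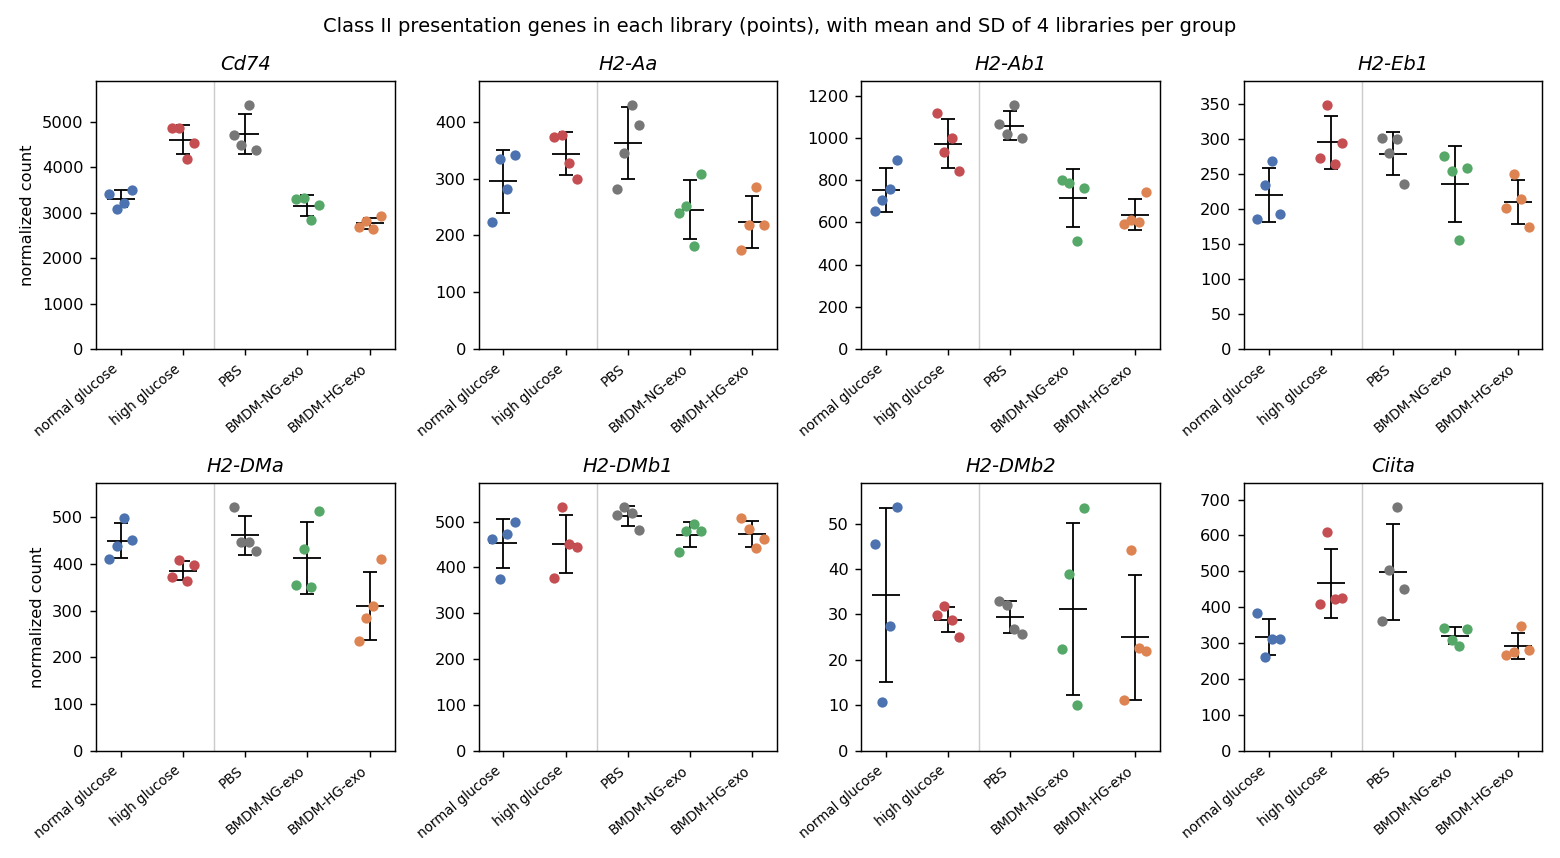
Normalized count of each member (linear axis from 0) in every library, by group, with the mean (bar) and SD (whiskers) of 4 libraries. Cd74, H2-Ab1 and Ciita have every BMDM-NG-exo and BMDM-HG-exo point below every PBS point, and H2-DMb1 stays between 376 and 532 throughout.

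High glucose was compared with normal glucose to ask what the sugar itself did to the class II genes. Cd74, Ciita, H2-Eb1 and H2-Ab1 rose, which is 4 of the 8 members called higher and 0 called lower at an adjusted p-value under 0.05. Over all 14425 genes tested, 13.3% were called and 7.74% were called as higher. Cd74 rose by a log2 fold change of 0.48 (SE 0.050, adjusted p = 5.48e-09, limma with Benjamini-Hochberg adjustment). Ciita rose by 0.55 (SE 0.13, adjusted p = 0.00234, limma), H2-Ab1 by 0.37 (SE 0.089, adjusted p = 0.00347, limma) and H2-Eb1 by 0.43 (SE 0.14, adjusted p = 0.0376, limma). Every high glucose library stood above every normal glucose library for 2 members, Cd74 and Ciita, a pattern that 9.18% of all genes showed. The remaining members did not pass. H2-Aa had a log2 fold change of 0.23 (95% interval -0.04 to 0.50, adjusted p = 0.277), H2-DMa of -0.22 (-0.43 to -0.01, adjusted p = 0.171), H2-DMb1 of -0.01 (adjusted p = 0.984) and H2-DMb2 of -0.03 (adjusted p = 0.980, all limma). For 1 member, H2-DMa, every high glucose library was below every normal glucose library, as for 7.11% of all genes. The median log2 fold change of the members was 0.30, beside -0.003 over all genes tested. The H2-Eb1 call was lost without normal glucose library 1 (adjusted p = 0.107), normal glucose library 6 (0.112), high glucose library 2 (0.162) or high glucose library 6 (0.0852). Without the trend of variance with level in limma, only Cd74 was called, and over all genes 654 were called in place of 1914.

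Against PBS, exosomes of normal glucose BMDM went with lower class II transcripts. Cd74, H2-Ab1, Ciita and H2-Aa fell, which is 4 of 8 members called. A call here needed, beside the adjusted p-value, a log2 fold change of 0.15 or more in size. Of the 14413 genes tested, 3.0% were called and 2.11% were called as lower. Cd74 had a log2 fold change of -0.58 (SE 0.056, adjusted p = 1.34e-08, limma), H2-Ab1 of -0.59 (SE 0.10, adjusted p = 0.000367, limma), Ciita of -0.60 (SE 0.14, adjusted p = 0.00752, limma) and H2-Aa of -0.57 (SE 0.16, adjusted p = 0.0379, limma). H2-Eb1 (-0.27, adjusted p = 0.512), H2-DMa (-0.17, adjusted p = 0.656), H2-DMb1 (-0.12, adjusted p = 0.667) and H2-DMb2 (-0.14, adjusted p = 0.944, all limma) did not pass. All BMDM-NG-exo libraries lay below all PBS libraries for 3 members, against 4.63% of all genes. The median over the members was -0.42, beside 0.005 over all genes. The H2-Aa call was lost without PBS library 2 (adjusted p = 0.0728), 3 (0.143) or 4 (0.124) or without BMDM-NG-exo library 1 (0.0739), 2 (0.0665) or 3 (0.219). The Ciita call was lost without PBS library 3 (0.0732), which had its highest value. Without the variance trend only Cd74 was called, and over all genes 95 were called in place of 432.

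Exosomes of high glucose BMDM, set against the same PBS libraries, also went with lower class II transcripts. Cd74, H2-Ab1, Ciita, H2-Aa and H2-DMa fell, 5 of 8 members, where 4.84% of all genes were called and 3.08% were called as lower. Cd74 had a log2 fold change of -0.77 (SE 0.056, adjusted p = 9.48e-12, limma), which is 0.585 times its PBS level on the scale of the normalized count plus 1. H2-Ab1 was at -0.74 (SE 0.10, adjusted p = 6.35e-06, limma) and Ciita at -0.74 (SE 0.14, adjusted p = 0.000427, limma). H2-Aa was at -0.70 (SE 0.16, adjusted p = 0.00437, limma) and H2-DMa at -0.60 (SE 0.14, adjusted p = 0.00431, limma). H2-Eb1 (-0.41, 95% interval -0.74 to -0.08, adjusted p = 0.158), H2-DMb1 (-0.11, adjusted p = 0.617) and H2-DMb2 (-0.38, adjusted p = 0.752, all limma) did not pass. All BMDM-HG-exo libraries lay below all PBS libraries for 4 members, Cd74, H2-Ab1, Ciita and H2-DMa, against 5.59% of all genes. The median over the members was -0.65, beside 0.003 over all genes. The count of 5 was the same without any 1 of the 12 libraries. It was 2 (Cd74 and H2-Ab1) without the variance trend, where 295 of all genes were called in place of 698.

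The comparison of both kinds of exosomes, BMDM-HG-exo against BMDM-NG-exo, asked whether the glucose that the donor cells had seen made a difference. None of the 8 members was called in limma, edgeR or DESeq2, where 0.0139% of all genes (2 of 14413) were called in limma. At an unadjusted p-value under 0.05 with the same limit of fold change there were 2, Cd74 and H2-DMa, beside 4.36% of all genes. Cd74 had a log2 fold change of -0.19 (95% interval -0.31 to -0.08, adjusted p = 0.409, limma) and was lower in the BMDM-HG-exo library on 4 of 4 dates. H2-DMa had -0.42 (95% interval -0.70 to -0.14, adjusted p = 0.517, limma) and was also lower on 4 of 4 dates, as were 8.05% of all genes. The intervals of the other members spanned 0: -0.36 to 0.06 for H2-Ab1, -0.45 to 0.20 for H2-Aa, -0.48 to 0.18 for H2-Eb1, -0.42 to 0.14 for Ciita, -0.19 to 0.20 for H2-DMb1 and -1.17 to 0.70 for H2-DMb2.

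**Figure D3:**
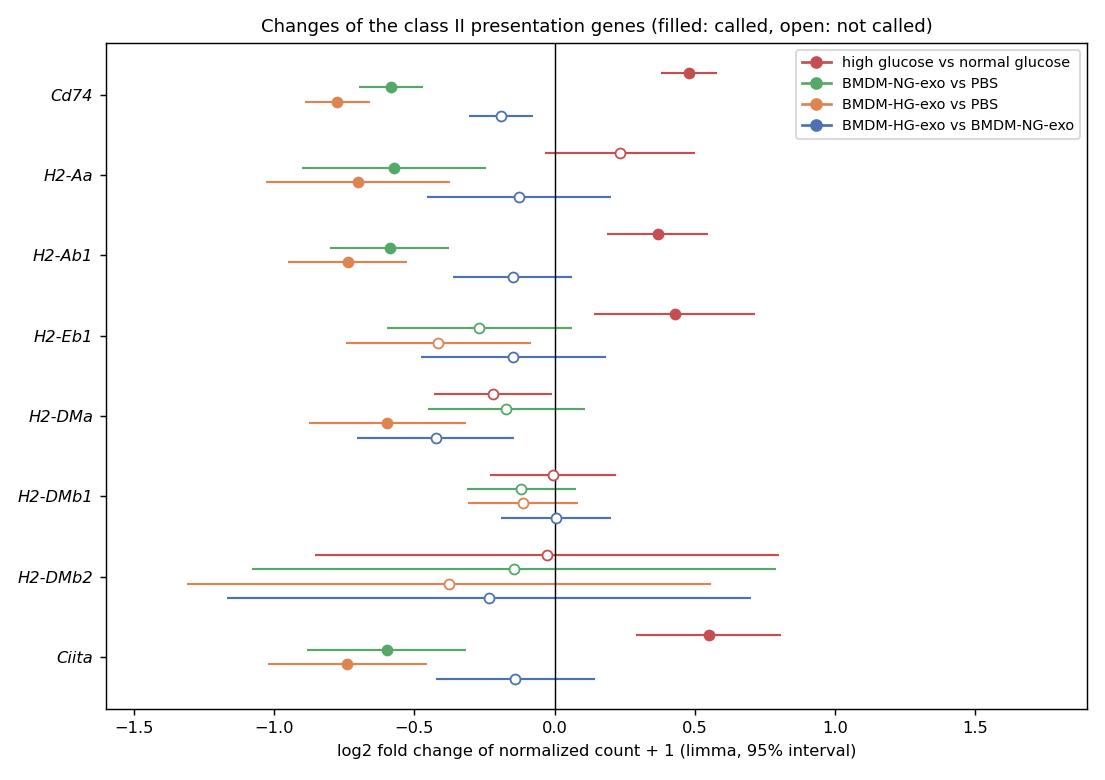
Log2 fold change of each member with its 95% interval (limma) in 4 comparisons, filled where called and open where not. Cd74, Ciita and H2-Ab1 lie above 0 for high glucose and below 0 for both kinds of exosomes against PBS, and the interval of H2-DMb2 is the widest in each comparison.

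The study set BMDM-HG-exo against BMDM-NG-exo and PBS as 1 combined control group. In that fit 0 of 8 members were called by limma, beside 0.201% of all genes, and all 8 estimates were below 0. Nearest to a call were Cd74 (-0.48, adjusted p = 0.0570) and H2-DMa (-0.51, adjusted p = 0.0705, both limma). At the level of single tests, 5 members passed an unadjusted p-value under 0.05 with the limit of fold change, as did 7.1% of all genes. edgeR called 1 member, Cd74 (adjusted p = 0.0498), and DESeq2 called 1, H2-DMa (adjusted p = 0.0250). The BMDM-NG-exo libraries, which form part of the control here, were themselves below PBS for Cd74, H2-Ab1, Ciita and H2-Aa as given above. Without BMDM-NG-exo library 3, limma called 3 members: Cd74 (adjusted p = 0.00402), H2-Ab1 (0.00417) and H2-DMa (0.0185). Cd74 was also called without BMDM-NG-exo library 1 (0.0270), 2 (0.0391) or 4 (0.0427), and H2-DMa without BMDM-NG-exo library 1 (0.0342) or BMDM-HG-exo library 4 (0.0354).

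Compared date by date, the exosome libraries gave the same directions for the called members. For Cd74, H2-Ab1 and Ciita every exosome library lay below every PBS library, so any pairing would give this direction against PBS. The same holds for H2-DMa with BMDM-HG-exo. The BMDM-HG-exo library was below the PBS library of its date on 4 of 4 dates for 7 members, the exception being H2-DMb2 (3 of 4), and for 12.7% of all genes. For Cd74 these differences were between -1.02 and -0.58 on the log2 scale, for H2-Ab1 between -0.94 and -0.43 and for Ciita between -0.97 and -0.44. The BMDM-NG-exo library was below PBS on 4 of 4 dates for Cd74 (-0.92 to -0.44), H2-Aa, H2-Ab1, H2-DMb1 and Ciita, on 3 for H2-Eb1 and H2-DMa, and on 2 for H2-DMb2. Of all genes, 10.9% were below PBS on 4 of 4 dates in this comparison. The lowest of the BMDM-NG-exo differences was that of library 3 for Cd74, H2-Aa, H2-Ab1, H2-Eb1, H2-DMb2 and Ciita. A fit with the date as a block called the same members as the fit without it in all 4 comparisons of this experiment.

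**Figure D4:**
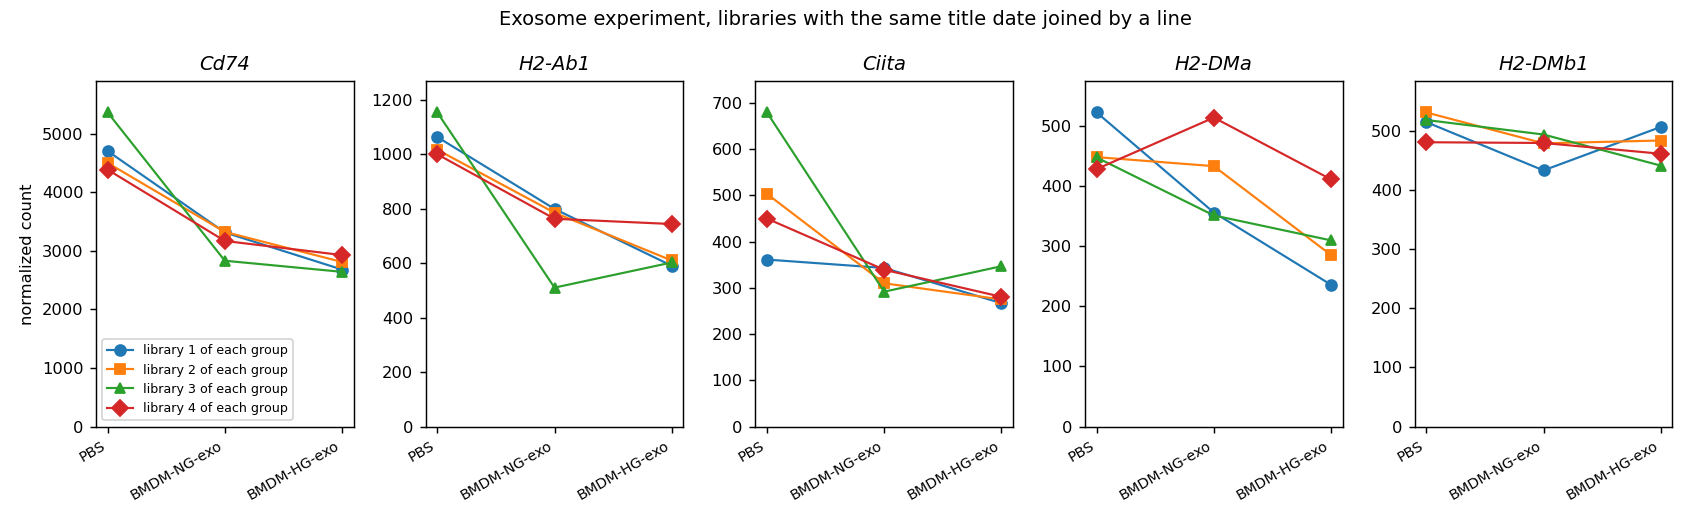
Normalized count (axis from 0) of 5 members in the exosome experiment, with the libraries of each title date joined by a line from PBS to BMDM-NG-exo to BMDM-HG-exo. Cd74 falls at each step on all 4 dates, while the H2-DMb1 lines stay between 434 and 532.

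The effect of glucose and the effect of the donor cells' glucose were set against each other in 1 fit of all 20 libraries, as the high minus normal glucose difference less the BMDM-HG-exo minus BMDM-NG-exo difference. For 3 of 8 members this difference was above 0 and called, where 4.74% of 14449 genes were called and 3.27% were called as higher. It was 0.67 for Cd74 (SE 0.081, adjusted p = 2.20e-07, limma), 0.52 for H2-Ab1 (SE 0.15, adjusted p = 0.0336, limma) and 0.69 for Ciita (SE 0.20, adjusted p = 0.0361, limma). H2-Eb1 had 0.57 (adjusted p = 0.146, limma) and was called without BMDM-NG-exo library 3 (0.0210). The Cd74 call held without any 1 of the 20 libraries. The H2-Ab1 call held without BMDM-NG-exo library 3, BMDM-HG-exo library 4, normal glucose library 6, high glucose library 2 or 6 or any PBS library, and was lost without any other (adjusted p of up to 0.0977), and it was also lost in DESeq2 (0.53, adjusted p = 0.0719). The Ciita call was lost without BMDM-NG-exo library 1 or 4, BMDM-HG-exo library 1, 2 or 4, normal glucose library 3, 5 or 6 or high glucose library 2 (adjusted p of up to 0.127). Without the variance trend only Cd74 was called, and over all genes 324 were called in place of 685.

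Other genes of the pathway were counted by role. None of the 7 factors of the class II promoter (Rfx5, Rfxap, Rfxank, Nfya, Nfyb, Nfyc and Creb1) was called by limma in any of these comparisons. Among 12 genes that carry interferon gamma signals or control Ciita, Spi1, a myeloid transcription factor (log2 fold change 0.23, adjusted p = 8.10e-06), and Irf1, a transcription factor induced by interferon gamma (0.19, adjusted p = 0.0135, both limma), rose in high glucose. The Irf1 call was lost without normal glucose library 6 (adjusted p = 0.0546) or high glucose library 1 (0.0794). With BMDM-HG-exo against PBS, the receptor chain Ifngr1 (-0.23, adjusted p = 0.000131), Irf1 (-0.30, adjusted p = 0.000421) and Spi1 (-0.17, adjusted p = 0.00231, all limma) fell. With BMDM-NG-exo against PBS these were not called. Irf1 was at -0.16 (adjusted p = 0.124), and Ifngr1 (-0.14, adjusted p = 0.0449) and Spi1 (-0.14, adjusted p = 0.0338, all limma) were below the limit of fold change. The medians of the 12 were 0.05 in high glucose, -0.15 with BMDM-HG-exo and -0.11 with BMDM-NG-exo. In the difference of the glucose and exosome effects, Spi1 (0.27, adjusted p = 0.000410) and Irf1 (0.32, adjusted p = 0.00774, both limma) were called as higher.

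Of 9 endosomal proteases and reductases, 3 rose and 1 fell in high glucose, where 13.3% of all genes were called and 7.74% as higher. Ctss, the protease that makes the late cuts of the invariant chain, rose by 0.21 (adjusted p = 9.85e-06), Ctsz by 0.17 (adjusted p = 0.000203) and Sppl2a, which cleaves the remaining membrane stub of Cd74, by 0.19 (adjusted p = 0.000803), while Ctsb was at -0.18 (adjusted p = 0.000179, all limma). These calls were lost with the replicate block (adjusted p = 0.117 for Ctss, 0.0746 for Ctsz, 0.131 for Sppl2a and 0.108 for Ctsb, limma). Without the variance trend, Ctsz (0.0518) and Ctsb (0.0504, both limma) were also lost. Against PBS, Ctsl fell with BMDM-HG-exo (-0.21, adjusted p = 0.000208, limma) and Ctsd rose with BMDM-NG-exo (0.17, adjusted p = 0.000221, limma). Under quantile normalization this Ctsd fold change was 0.12, below the limit for a call. With BMDM-HG-exo, Ctsd was at 0.15 (adjusted p = 0.000457, limma), just under the limit, with every library above every PBS library. In the difference of the glucose and exosome effects 4 of the 9 were called as higher, beside 3.27% of all genes. Of these, Ctss (0.22, adjusted p = 0.00110, limma) held without any 1 library but was lost under quantile normalization (adjusted p = 0.435), and Sppl2a, Ctsz and Ctsl were each lost without at least 3 of the 20 libraries in turn. March1, a ligase that marks class II molecules for degradation, fell in high glucose (-0.18, adjusted p = 0.0104, limma), and March8 did not pass (0.09, adjusted p = 0.282, limma). The March1 call was lost with the replicate block (adjusted p = 0.277) and without the variance trend (0.0829, both limma).

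Of 5 tested genes of costimulation, the costimulatory ligand Cd86 fell in high glucose (-0.54, adjusted p = 0.000476, limma) and the ligand Icosl rose (0.23, adjusted p = 0.0221, limma). Icosl fell with BMDM-HG-exo against PBS (-0.31, adjusted p = 0.00634, limma). Its call in high glucose was lost without normal glucose library 1 (adjusted p = 0.0501) or high glucose library 1 (0.0508), 2 (0.0840) or 6 (0.0657). Of 4 tested partners of Cd74 at the cell surface, Cd44, its co-receptor, fell in high glucose (-0.21, adjusted p = 9.25e-05, limma) and its ligand Mif rose (0.23, adjusted p = 0.0411, limma). The Mif call was lost without normal glucose library 3 (0.230) or high glucose library 1 (0.119), 4 (0.0585) or 6 (0.127). Of 5 other class II genes only H2-Ob was tested, and it passed in no comparison.

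**Figure D5:**
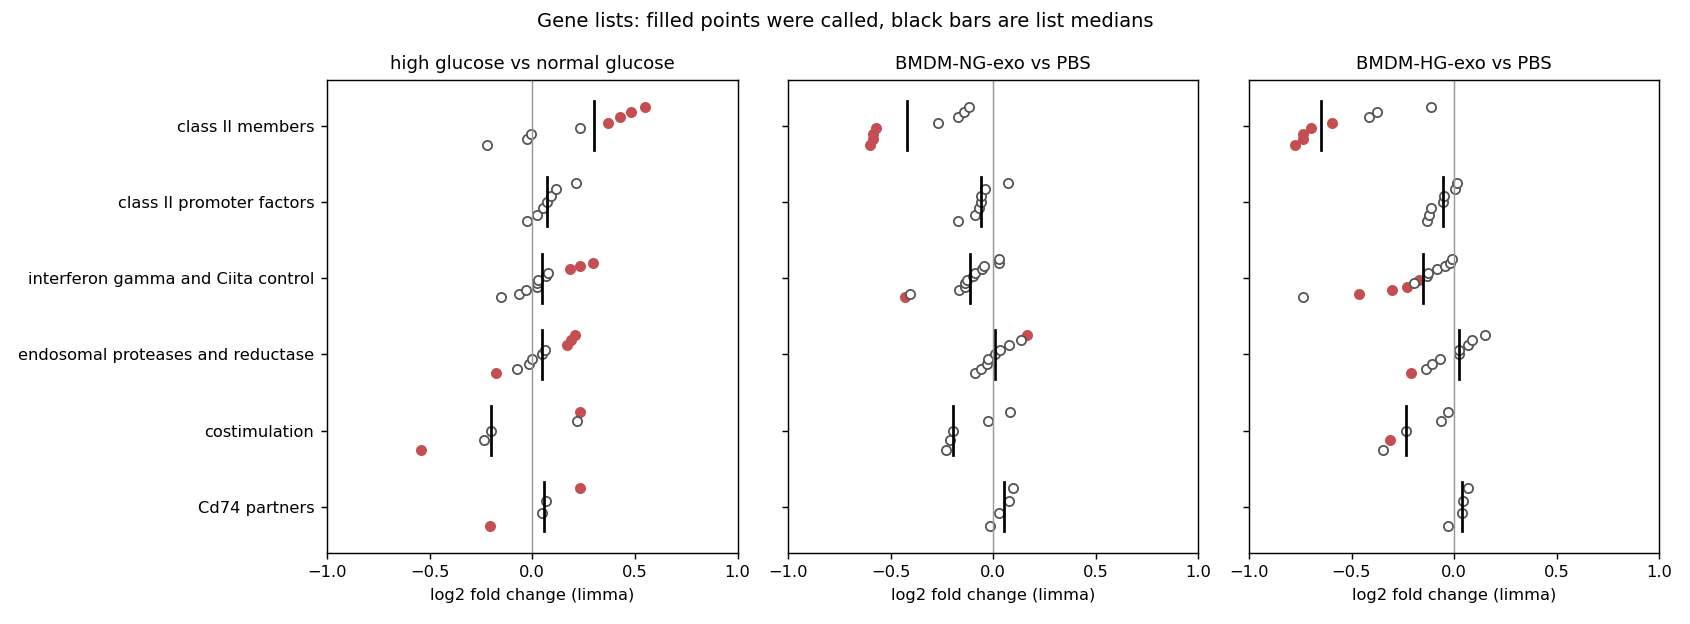
Log2 fold change (limma) of the members and of 5 lists of pathway genes in 3 comparisons, filled where called, with a black bar at the median of each list. The median of the members is 0.30 for high glucose, -0.42 for BMDM-NG-exo and -0.65 for BMDM-HG-exo, and the promoter factors have medians of 0.07, -0.06 and -0.06.

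Several genes that mark macrophages also moved, in high glucose in both directions. Of 9 markers, 4 rose (Csf1r, Lyz2, Cd14 and Adgre1) and 2 fell (Mertk by 0.40 and Cd68 by 0.15 on the log2 scale) in high glucose, beside 13.3% of all genes called. Against PBS, 5 fell with BMDM-HG-exo and 5 with BMDM-NG-exo (Fcgr1, Itgam, Csf1r, Cd14 and Adgre1 in both), beside 4.84% and 3.0% of all genes called. The Adgre1 call in high glucose was kept in only 2 of 8 fits that left out 1 library. It was also lost in edgeR (adjusted p = 0.0530) and, in limma, under quantile normalization (0.604), without the variance trend (0.212) and with the replicate block (0.482). Csf1r, the receptor for M-CSF, had log2 fold changes of 0.35 in high glucose, -0.22 with BMDM-NG-exo and -0.26 with BMDM-HG-exo, each called by limma. Under quantile normalization its value with BMDM-HG-exo was -0.119, below the limit for a call, and without the variance trend its call with BMDM-NG-exo was lost (adjusted p = 0.0821). With BMDM-NG-exo the Itgam call was lost without PBS library 1 (adjusted p = 0.0608) or BMDM-NG-exo library 1 (0.0986), and Adgre1 was under the limit of fold change with array weights (-0.148), with quantile normalization (-0.129), or without PBS library 1 or 3 or BMDM-NG-exo library 1. The summed normalized count of the 9 markers was between 807730 and 854368 in PBS, between 729409 and 786639 in BMDM-NG-exo and between 746994 and 771979 in BMDM-HG-exo. In normal glucose it reached at most 714242 (lowest 640133), and in high glucose at least 819293 (highest 889763). Lyz2 made up between 69.9% and 74.7% of this sum. It rose in high glucose by 0.42 (adjusted p = 7.08e-10, limma). Quantile normalization gives genes of equal rank equal values, so the log2 fold change of 0 for Lyz2 there cannot show whether it changed. Without Lyz2, the sum was between 222151 and 235026 in PBS, at most 210496 in BMDM-NG-exo, at most 203133 in BMDM-HG-exo, at most 201703 in normal glucose and at least 219810 in high glucose. Ccr2, a monocyte marker, rose in high glucose (0.22, adjusted p = 0.00110) and fell with BMDM-NG-exo (-0.28, adjusted p = 0.00152) and BMDM-HG-exo (-0.37, adjusted p = 1.51e-05, all limma). Itgax, the only dendritic cell marker listed, was between 68.0 and 142 in the exosome experiment and between 102 and 157 in the glucose experiment. It was called by limma in none of these comparisons, and neither were the listed B cell, T cell and neutrophil markers. The part of the macrophage and monocyte markers in the differences of the class II genes was not tested.

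Within groups, the members varied together to different degrees. After each group mean was removed, the correlation across the 12 exosome libraries was 0.82 for Cd74 with H2-Ab1 and 0.73 for H2-Aa with Ciita, and -0.50 for H2-Aa with H2-DMb1 (Pearson, as a description). These were the highest and the lowest values among the member pairs. Over all 20 libraries the same pairs had 0.65, 0.37 and -0.25. Among other genes, those most like the mean standardised profile of Cd74, H2-Aa, H2-Ab1 and H2-Eb1 over the 20 libraries were C130050O18Rik (r = 0.81), Ing1 (0.80), Jak1 (0.77), Pdcd4 (0.77) and Bub1 (0.76). Over the 12 exosome libraries they included L3mbtl3 (0.92), Jak1 (0.91), C130050O18Rik (0.90) and Rgs19 (0.90). All values of a library share its size factor and depth, and these genes were picked as the highest of all tested genes with a mean of at least 50.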

How the data were processed

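The long RNA of 20 BMDM libraries was analysed, 4 in each of 5 groups taken from the treatment labels. Per the study's methods the authors made stranded total RNA libraries, mapped the reads with STAR to GRCm38, counted them per gene by strand with featureCounts and scaled them with the median-ratio method. The deposited values are therefore a signal, a count divided by 1 size factor per library. Divided by its step, each of the 20 columns gave whole reads within 0.01 of a read. In PBS library 4 and BMDM-HG-exo library 1 the step was within 1% of 1, so scaled and unscaled counts could not be told apart from those columns alone. No column lacked a sample.

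Log2(normalized count + 1) was fitted with limma 3.58.1 in R 4.3.3 (eBayes with trend), two-sided, on genes whose mean reached 10, as all 8 members did. Benjamini-Hochberg adjustment ran over all genes tested. Each experiment (8 and 12 libraries) had its own fit, and all 20 libraries were fitted together for the difference of effects. The combined-control comparison had a fit of its own with 2 groups. Both exosome groups were compared with the same PBS libraries, and comparisons of BMDM-HG-exo share those libraries too. Alternatives used edgeR 4.0.16, DESeq2 1.42.0, other pseudocounts (0.5 and 5), filters, TMM and quantile scaling, array weights, no variance trend, a replicate block and each library left out. The fits were tested on simulated data.

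All members were named, and of each pathway list up to 4 called genes with the smallest p-values per comparison. A called gene of the pathway lists and a gene of the likeness ranking are not reported here. The members and lists were chosen with earlier results of these data known. The exosome groups share their title dates, which were used to pair the libraries, although the titles do not say what was done on these days. Same-date libraries deviated from their group means hardly more alike (mean r = 0.012 over 12 pairs) than others (-0.004 over 36 pairs). No 2 libraries of a group were copies: the chi-square per degree of freedom over genes was between 5.19 and 41.9 in 30 pairs. H2-DMb2 had the fewest reads. The symbols come from GENCODE M21 and the promoters from RefSeq.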

Additional observations from a re-analysis of the deposited data

Results flagged for a closer look

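For 3 of the 40 gene and group combinations (8 members in 5 groups of 4 libraries), 1 library stood far from the other 3, where chance alone flags about 1 in 20. H2-Ab1 in BMDM-NG-exo was at 510.4 in library 3, with the others between 763 and 799.5. H2-Ab1 in BMDM-HG-exo was at 744 in library 4, with the others between 591 and 610.1. Ciita in high glucose was at 609 in library 2, with the others between 410.3 and 424. The log2 fold change of Ciita in high glucose was at least 0.41 without any 1 of the 8 libraries.

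For 3 members the response to glucose and the response to the donor cells' glucose differed in a test of the difference itself (limma). The difference was 0.67 for Cd74, 0.52 for H2-Ab1 and 0.69 for Ciita on the log2 scale. Only the Cd74 call was stable. With single libraries removed in turn, Cd74 stayed called 20 of 20 times, H2-Ab1 9 times and Ciita 11 times. Without the variance trend, H2-Ab1 (adjusted p = 0.186) and Ciita (0.159, both limma) were not called. The replicate block removed both of these calls as well. H2-Ab1 was also not called in DESeq2 (adjusted p = 0.0719).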

How the results depend on the processing

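Most values kept their direction and side of the threshold: of the values of members under alternatives, 1040 did, 47 lost and 13 gained a call, and 30 turned sign, all of H2-DMb1 or H2-DMb2. Without the variance trend the members called were 1 in high glucose, 2 in BMDM-HG-exo against PBS, 1 in BMDM-NG-exo against PBS and 1 in the difference of effects. Over all genes the calls were then, in the same order, 654 in place of 1914, 295 in place of 698, 95 in place of 432 and 324 in place of 685. The cause was not tested. With the replicate block, 2 (Cd74 and H2-Ab1) were called in high glucose and 1 (Cd74) in the difference of effects. In high glucose Ciita was then at 0.27 (adjusted p = 0.439) and H2-Eb1 at 0.58 (0.0571), and in the difference of effects H2-Ab1 was at 0.49 (0.242) and Ciita at 0.41 (0.503). Normal and high glucose share only the numbers 1 and 6, which the labels do not tie to a culture (mean r = 0.008 over 2 pairs), and the block by date changed no member call in the exosome experiment. Over all genes the block called 788 in place of 1914 in high glucose, 296 in place of 685 in the difference of effects and 22 in place of 2 in BMDM-HG-exo against BMDM-NG-exo. DESeq2 called 136 genes in place of 29 against the combined controls, and 25 in place of 2 between the exosomes. Quantile normalization turned 1116 higher and 798 lower genes in high glucose into 789 and 872, and 472 higher and 213 lower in the difference of effects into 322 and 290.

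Against the combined controls, a pseudocount of 5, array weights, edgeR and DESeq2 each called 1 member, an unadjusted p under 0.05 gave 5, and leaving out 1 library gave 0 to 3. Between the exosomes an unadjusted p gave 2. Leaving out 1 library gave 2 to 4 for BMDM-NG-exo against PBS and 1 to 4 for the difference of effects.

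Under quantile normalization the log2 fold change of H2-DMb1 was 0.022 in high glucose and 0.013 in the difference of effects, and that of H2-DMb2 0.051 in high glucose. H2-DMb2 in BMDM-NG-exo against PBS was 0.071 in edgeR and 0.075 in DESeq2. H2-DMb1 between the exosomes was -0.0026 with array weights, and H2-DMb2 was -0.60 in the difference of effects with the replicate block. Leaving out 1 library, H2-DMb1 ran from -0.093 to 0.077 in high glucose, -0.034 to 0.038 between the exosomes and -0.098 to 0.071 in the difference of effects. H2-DMb2 ran from -0.49 to 0.26 in high glucose, -0.62 to 0.011 against the combined controls, -0.47 to 0.29 in BMDM-NG-exo against PBS, -0.67 to 0.097 between the exosomes and -0.25 to 0.64 in the difference of effects. H2-DMb2 had 10 to 64 reads per library, and its normalized count was 29.4 ± 3.62 in PBS and 31.2 ± 18.9 in BMDM-NG-exo (SD, n = 4 each). What sets this spread was not tested.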
